A study of Mus musculus with 16 samples.

Results

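Cell-cycle and DNA replication genes were read in the adult mouse hippocampus as a transcript measure of proliferation in a setting that included running wheels. The 33 genes listed comprise cyclins and their kinases, factors that license and unwind replication origins, enzymes of DNA synthesis, mitotic kinases and motors, and the anaphase-promoting complex. Of these, 32 had a probe set with exactly 1 gene symbol, among 21780 such probe sets for 19935 genes. Ccnb1, cyclin B1, had none and was not analysed here. Where a gene had more than 1 probe set, which was the case for Top2a and Pcna, the brightest stood for it. The members were listed by function, with earlier results of these data known.

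The 16 arrays held pools of female mice aged 3 months, each pool combining equal amounts of hippocampal RNA from 4 animals. All mice came from an F2 background of C57BL/6J and DBA. There were 3 pools of cbp+/- mice, heterozygous for a deficiency of Crebbp, after 2 weeks of environmental enrichment, and 5 pools of cbp+/- mice in standard cages. Their wild-type littermates gave 3 enriched pools and 5 standard-cage pools, and the labels call the pools independent biological replicates. Enrichment was a large box shared by many animals, with toys, tubing and running wheels. Tissue was taken at least 16 h after the box had last been rearranged. Wheels were 1 element of the box, and no pool was given wheels alone, so their effect and that of the other elements cannot be told apart. Arrays are named by genotype, housing (EE enriched, SC standard cage) and number, as in WT_EE_3.

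In the adult hippocampus, dividing cells are few and lie mainly in the subgranular zone of the dentate gyrus, where neural stem cells give rise to progenitors and then to granule neurons. Wheel running is known to raise the number of dividing cells there. Most of the genes described here are transcribed in waves during the cell cycle. Factors of the E2F family act on genes of the entry into DNA synthesis. The MuvB complexes act through so-called CHR elements on genes of mitosis, whose promoters often also hold CCAAT elements. Cyclin D genes differ, since they respond to growth signals and are also expressed outside dividing cells. In bulk RNA, fewer cells of a type and less RNA per cell cannot be told apart.

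Promoter windows of 5 members are printed to show these elements beside genes that the results return to. They are the 250 bases before the annotated start in RefSeq's promoter table of assembly GRCm38.p6, written 5′ to 3′ on the gene's strand. Capitals mark matches, on either strand, to CCAAT and to the CHR letters TTTGAA. They also mark matches to the E2F letters TTTCCCGC, TTTCGCGC, TTTGCCGC or TTTGGCGC, and to the cAMP response element TGACGTCA. The last of these is bound by CREB, a factor through which CBP is recruited. Mki67 and Top2a show CHR and CCAAT matches, Cdc6 an E2F match, Mcm5 the only cAMP response element match among the members together with E2F letters in which matches on opposite strands overlap, and Anapc1 shows no match. The Mki67 window lies at chr7:135716380-135716629 on the minus strand, the Top2a window at chr11:99024190-99024439 on the minus strand, the Cdc6 window at chr11:98907901-98908150 on the plus strand, the Mcm5 window at chr8:75109259-75109508 on the plus strand and the Anapc1 window at chr2:128687396-128687645 on the minus strand.
Mki67: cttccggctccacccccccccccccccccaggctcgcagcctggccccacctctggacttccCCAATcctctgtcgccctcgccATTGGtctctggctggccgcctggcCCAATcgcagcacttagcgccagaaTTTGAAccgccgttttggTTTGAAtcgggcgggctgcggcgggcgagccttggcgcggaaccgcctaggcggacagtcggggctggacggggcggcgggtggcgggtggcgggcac
Top2a: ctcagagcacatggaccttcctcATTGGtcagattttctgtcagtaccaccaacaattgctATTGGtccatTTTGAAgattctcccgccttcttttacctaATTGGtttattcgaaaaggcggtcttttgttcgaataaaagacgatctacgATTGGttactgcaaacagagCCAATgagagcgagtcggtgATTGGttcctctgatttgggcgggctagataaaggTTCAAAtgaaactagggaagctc
Cdc6: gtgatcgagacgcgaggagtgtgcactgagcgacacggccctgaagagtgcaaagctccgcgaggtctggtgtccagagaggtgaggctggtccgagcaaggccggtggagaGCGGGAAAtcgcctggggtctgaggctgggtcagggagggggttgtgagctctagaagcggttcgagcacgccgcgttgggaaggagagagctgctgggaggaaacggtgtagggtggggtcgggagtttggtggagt
Mcm5: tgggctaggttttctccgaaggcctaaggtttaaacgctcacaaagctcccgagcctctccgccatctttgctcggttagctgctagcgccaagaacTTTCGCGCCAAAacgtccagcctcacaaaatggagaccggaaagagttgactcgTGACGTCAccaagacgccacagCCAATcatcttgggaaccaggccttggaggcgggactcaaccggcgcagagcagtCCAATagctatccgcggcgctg
Anapc1: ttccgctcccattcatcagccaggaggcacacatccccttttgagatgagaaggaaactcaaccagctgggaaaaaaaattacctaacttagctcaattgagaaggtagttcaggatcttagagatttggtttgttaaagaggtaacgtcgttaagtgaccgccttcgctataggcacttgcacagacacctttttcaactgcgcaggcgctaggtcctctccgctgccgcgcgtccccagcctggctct

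The table held 27 windows for 26 of the 33 listed genes; Ccna2, Ccnd1, Ccnd2, Ccne2, Mcm4, Aurkb and Tpx2 were not matched. CCAAT was present in 21 of the 27 windows (77.8%), against 33.8% of all 32536 distinct windows of the same length. E2F letters were present in 6 of 27 (22.2%), in Cdk1, Cdk2, Cdc6, Mcm5, Mcm6 and Mcm7, against 1.87% of all windows. The CHR letters were present in 7 of 27 (25.9%), in Cdk1, Ccnb2, Mcm2, Mki67, Top2a, Kif11 and Cdc20, against 15.8% of all. TGACGTCA was present in 1 of 27 (3.7%) against 1.56%. A match is a description of letters and not of binding.

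The arrays offered little signal for most of these genes. All 9 markers of hippocampal neurons were above the 95th percentile of 29 probe sets of Y-linked genes, whose transcripts female mice lack; that percentile was a log2 signal of 5.24. Of the members, 28 averaged above it and 4 did not: Cdk1 (5.23), Mki67 (5.23), Kif11 (5.17) and Bub1 (4.91). The Y-linked median was 4.76, the 90th percentile 4.95 and the highest value 6.64. Of these 4 members, only Bub1 was also below the 90th percentile. Over all probe sets, 80.9% were above the 95th percentile, so passing it does not identify a tissue. Ranked by mean signal into 10 brightness classes of 2178 probe sets each, 26 of the 32 members fell in the dimmest 5 classes. Among the markers of other cells, Eomes of intermediate progenitors (5.19) and Otx2 of the choroid plexus (5.20) were also below the 95th percentile. Levels of different genes are not compared, because each probe set has its own response.

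Facts of the whole series that touch these results are few. Crebbp was not lower on arrays labelled cbp+/-: its log2 signal was 9.33 to 9.37 in enriched and 9.35 to 9.88 in standard-cage pools labelled cbp+/-, against 9.18 to 9.35 in enriched and 9.21 to 9.64 in standard-cage wild-type pools. In 8 of 8 same-numbered pairs Crebbp was higher in the pool labelled cbp+/-. The genotype difference averaged over housings was 0.12 (SE 0.081, limma adjusted p = 0.999). The labels do not say whether the Crebbp probes cover the altered part of the gene, and every genotype direction below rests on the labels. CBP_SC_3 stood apart by choroid plexus transcripts. The median log2 deviation of these markers from their means over all arrays was 1.36 there, against 0.10 or less on every other array. WT_EE_3 and CBP_EE_3 deviated together from the other enriched pools. Same-numbered pools of both genotypes also deviated together within each housing, least for the enriched pools numbered 1 and 2.

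Enrichment raised none of the 32 genes past the test in either genotype. In wild-type pools 0 of 32 members passed an adjusted p of 0.05 (limma, Benjamini-Hochberg over all probe sets), and 0% of all 21780 probe sets did. The smallest adjusted p among the members was 0.155, for Cdc6 and Aurkb. At an unadjusted p under 0.05 there were 4 members (12.5%), all higher in enrichment, against 17.8% of all probe sets. Between pools labelled cbp+/-, 0 of 32 members and 0% of all probe sets passed, and 1 member (3.12%) had an unadjusted p under 0.05, against 2.82% of all. A member's share of calls near that of all probe sets is not a result about the members.

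Levels leaned slightly upwards in enrichment, as did those of most dim probe sets. In wild-type mice 21 of 32 members were higher in enriched pools (65.6%), with a median difference of 0.042 on the log2 scale, against 58.4% of all probe sets and a median of 0.029. Among pools labelled cbp+/-, 20 of 32 members were higher in enrichment (62.5%, median 0.018), against 55% of all (median 0.0096). Without CBP_EE_1 that count was 15 of 32 and the median -0.0093, so leaving out 1 pool turned the direction. Across the dimmest 5 brightness classes of all probe sets the wild-type median differences were 0.037, 0.084, 0.12, 0.13 and 0.073, and across the brightest 5 they were -0.015, -0.067, -0.087, -0.093 and -0.083. Set against the median of their own brightness class, 12 of 32 members were above it in wild-type mice and 11 of 32 in pools labelled cbp+/-. When all arrays were given the same distribution by quantile normalization, only 9 of 32 members were higher in enriched wild-type pools and 10 of 32 in enriched pools labelled cbp+/-, so the direction of the lean depended on the scaling. The interquartile range of log2 signals was 2.30 to 2.43 on enriched wild-type arrays and 2.51 to 2.59 on standard-cage wild-type arrays; its part in the lean was not tested.

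**Figure D1:**
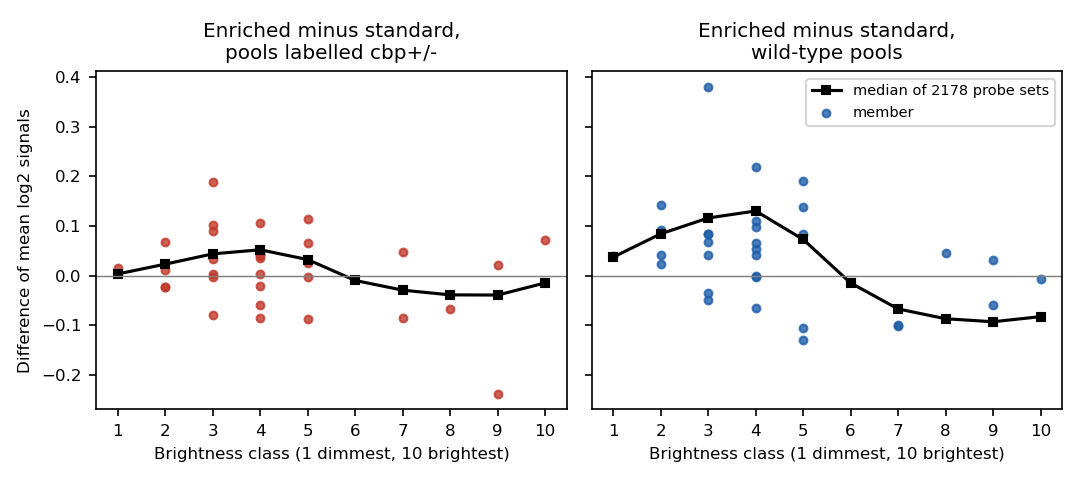
Difference of mean log2 signals, enriched minus standard cage, against brightness class (1 dimmest, 10 brightest) for pools labelled cbp+/- (left) and wild-type pools (right). Coloured points are the 32 members and black squares the median of the 2178 probe sets of each class. The black line runs above 0 in the dim classes that hold 26 members and below 0 in the bright ones, and 12 wild-type members lie above the square of their own class.

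The intervals bound the differences in measured signal. In wild-type mice the 95% interval of the housing difference lay within 0.5 log2 units of 0 for 31 of 32 members, all but Cdc6, and in pools labelled cbp+/- for all 32. Of all 21780 probe sets it did so for 17911 in wild-type mice and for 18950 in pools labelled cbp+/-. The members' standard errors ran from 0.039 for Tpx2 to 0.22 for Pcna. The intervals take the deposited scaling as given. These intervals concern whole-hippocampus RNA and not the rare dividing cells themselves. Most members lay in the dim brightness classes. The mean signals of Mki67, Cdk1, Kif11 and Bub1 were not above the Y-linked percentile. For such genes an interval bounds the probe signal and may not bound the change of the transcript.

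**Figure D2:**
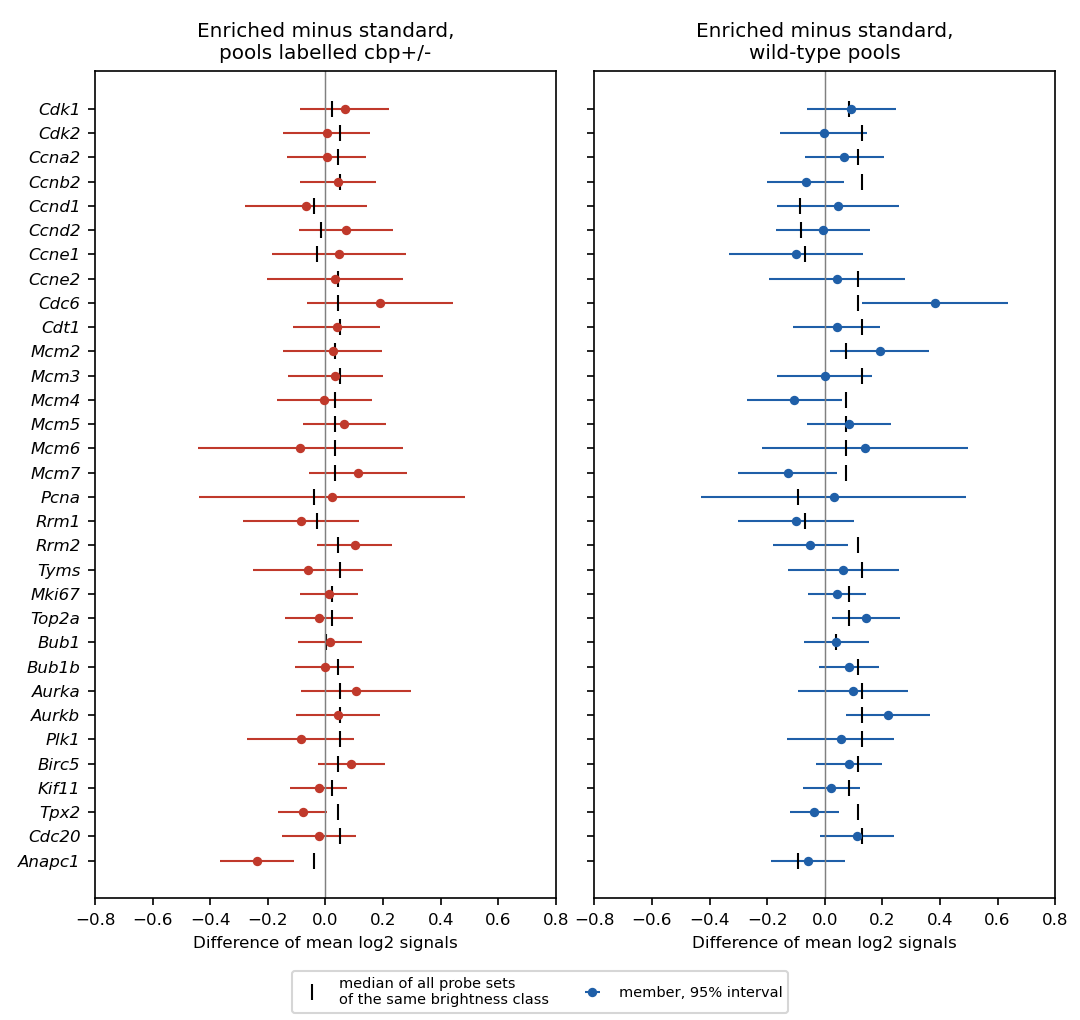
Enriched minus standard-cage difference of mean log2 signals for each member, in pools labelled cbp+/- (left) and wild-type pools (right). Points are estimates with 95% intervals from the moderated fit (3 enriched and 5 standard-cage pools per genotype), and black ticks are the median of all probe sets of the same brightness class. Most intervals cross 0. In wild type Cdc6, Mcm2, Top2a and Aurkb lie to the right of it, and in pools labelled cbp+/- Anapc1 lies to the left.

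Among the genes that prepare origins for replication, Cdc6, which loads the Mcm helicase, had the largest housing difference of the members in wild-type mice. Its log2 signal was 6.02, 5.56 and 5.48 in enriched wild-type pools, against 5.18, 5.27, 5.30, 5.33 and 5.46 in standard-cage wild-type pools. Every enriched wild-type pool lay above every standard-cage one, narrowly for WT_EE_3 and far for WT_EE_1. The difference was 0.38 (SE 0.12, 95% interval 0.13 to 0.64, a fold of 1.30, adjusted p = 0.155), and without WT_EE_1 it was 0.22. Cdc6 in pools labelled cbp+/- read 5.56, 5.67 and 5.47 in enrichment and 5.42, 5.48, 5.26, 5.14 and 5.58 in standard cages, groups that overlapped (difference 0.19, SE 0.12, adjusted p = 0.999).

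Mcm2 is a subunit of the replicative helicase and a common marker of cells competent to divide. It read 6.62, 6.37 and 6.26 in enriched wild-type pools, against 6.14, 6.23, 6.24, 6.31 and 6.22 in standard-cage wild-type pools. Of the enriched pools, 2 of 3 lay above all standard-cage pools, and the difference was 0.19 (SE 0.080, adjusted p = 0.239). It was 0.090 without WT_EE_1. In pools labelled cbp+/- the values were 6.38, 6.38 and 6.09 in enrichment and 6.23, 6.31, 6.23, 6.33 and 6.18 in standard cages, with 2 enriched pools above and CBP_EE_3 below all standard-cage pools, and a difference of 0.025 (SE 0.080).

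The other helicase subunits did not move as a block. Wild-type housing differences were -0.00092 for Mcm3, -0.11 for Mcm4, 0.084 for Mcm5, 0.14 for Mcm6 and -0.13 for Mcm7; the encoded proteins assemble into a single ring. The corresponding differences in pools labelled cbp+/- were 0.035, -0.0036, 0.065, -0.087 and 0.11. Of these subunits Mcm6 varied most between pools of 1 group, from 6.11 to 6.76 in standard-cage pools labelled cbp+/-. Cdt1, which loads the helicase together with Cdc6, had differences of 0.041 in wild-type pools and 0.039 in pools labelled cbp+/-. None of these passed the test.

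Mcm7 showed the largest contrast between the genotypes' housing differences among the members. It read 6.59, 6.64 and 6.72 in enriched pools labelled cbp+/-, against 6.48, 6.50, 6.56, 6.58 and 6.57 in standard-cage pools labelled cbp+/-. In wild-type mice it read 6.41, 6.64 and 6.21 in enrichment, against 6.56, 6.49, 6.43, 6.58 and 6.68 in standard cages. Enriched pools labelled cbp+/- lay above all their standard-cage pools, and 2 of 3 enriched wild-type pools lay below all of theirs. The difference between the housing differences was 0.24 (SE 0.11, adjusted p = 1.00), 0.14 without WT_EE_3, the lowest pool, and 0.023 with array weights.

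Enzymes of DNA synthesis had housing differences of both signs. Pcna, the sliding clamp of the replication fork, read 8.59, 8.42 and 8.93 in enriched and 8.48, 8.47, 8.63, 8.38 and 9.16 in standard-cage pools labelled cbp+/-. In wild-type mice it read 8.23, 8.43 and 9.16 in enriched and 8.47, 8.51, 8.61, 8.35 and 8.94 in standard-cage pools. The high pools were the enriched ones numbered 3 and the standard-cage ones numbered 5 in both genotypes, and both housings held high and low pools. Housing differences were 0.022 in pools labelled cbp+/- and 0.031 in wild-type pools (SE 0.22 each), and a second probe set gave 0.022 and 0.028. The ribonucleotide reductase subunits Rrm1 and Rrm2, which make deoxyribonucleotides, differed by -0.086 and 0.10 in pools labelled cbp+/- and by -0.10 and -0.050 in wild-type pools. Tyms, which makes thymidylate, differed by -0.059 in pools labelled cbp+/- and 0.065 in wild-type pools.

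Mki67, a standard marker of dividing cells, had a mean signal of 5.23, just below the 95th percentile of the Y-linked probe sets. Their median was 4.76 and their 90th percentile 4.95. Mki67, whose protein Ki-67 is present throughout the active cell cycle, read 5.19, 5.29 and 5.17 in enriched and 5.14, 5.23, 5.20, 5.27 and 5.19 in standard-cage pools labelled cbp+/-. In wild-type mice it read 5.22, 5.23 and 5.37 in enriched and 5.19, 5.22, 5.22, 5.27 and 5.27 in standard-cage pools. Only WT_EE_3 stood above every standard-cage wild-type pool. The housing differences were 0.012 in pools labelled cbp+/- and 0.042 in wild-type pools (SE 0.047 each, adjusted p = 0.999 and 0.670), and the wild-type one had the opposite sign without WT_EE_3.

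Top2a, the topoisomerase that untangles chromosomes before mitosis, read 5.32, 5.35 and 5.39 in enriched wild-type pools, against 5.17, 5.18, 5.21, 5.24 and 5.25 in standard-cage wild-type pools. The groups did not overlap, and the difference was 0.14 (SE 0.055, 95% interval 0.023 to 0.26, adjusted p = 0.212). A second, dimmer probe set of Top2a differed by 0.0074, and under quantile normalization the brighter one differed by 0.050. Top2a in pools labelled cbp+/- read 5.29, 5.21 and 5.16 in enrichment, against 5.18, 5.18, 5.42, 5.28 and 5.18 in standard cages (difference -0.023, SE 0.055). The highest of these pools was CBP_SC_3.

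Aurkb, the mitotic kinase of the chromosomal passenger complex, was the third member whose wild-type groups did not overlap. It read 6.19, 6.09 and 6.07 in enriched wild-type pools, against 5.87, 5.85, 5.86, 6.07 and 5.83 in standard-cage wild-type pools. The lowest enriched pool and WT_SC_4 were nearly level. The difference was 0.22 (SE 0.068, 95% interval 0.073 to 0.36, a fold of 1.16, adjusted p = 0.155), and 0.12 under quantile normalization. In pools labelled cbp+/- the values were 6.12, 5.90 and 5.92 in enrichment and 6.02, 5.91, 5.90, 6.02 and 5.83 in standard cages, which overlapped (difference 0.043, SE 0.068).

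The remaining mitotic genes differed less. Cdk1, the kinase that drives entry into mitosis, differed by 0.067 in pools labelled cbp+/- and 0.092 in wild-type pools (SE 0.072 each), with 1 of 3 and 2 of 3 enriched pools above every standard-cage pool. Its partner cyclins Ccna2 and Ccnb2 differed by 0.0042 and 0.043 in pools labelled cbp+/- and by 0.067 and -0.066 in wild-type pools. Aurka and Plk1, kinases of the spindle poles, differed by 0.11 and -0.086 in pools labelled cbp+/- and by 0.098 and 0.055 in wild-type pools. Birc5, survivin, which works with Aurkb, differed by 0.090 in pools labelled cbp+/- and 0.084 in wild-type pools (SE 0.054 each). The checkpoint kinase Bub1 and its relative Bub1b differed by 0.015 and -0.0025 in pools labelled cbp+/- and by 0.040 and 0.084 in wild-type pools. The spindle motor Kif11 differed by -0.024 in pools labelled cbp+/- and 0.023 in wild-type pools. Cdc20, the activator of the anaphase-promoting complex, differed by -0.021 in pools labelled cbp+/- and 0.11 in wild-type pools. All of these had adjusted p values above 0.3.

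Tpx2, a spindle assembly factor that activates Aurka, was the member measured most tightly. It read 5.50, 5.46 and 5.43 in enriched pools labelled cbp+/-, against 5.51, 5.53, 5.56, 5.52 and 5.56 in standard-cage pools labelled cbp+/-. Every enriched pool lay below every standard-cage one, with a difference of -0.079 (SE 0.039, adjusted p = 0.999). In wild-type mice it read 5.51, 5.38 and 5.51 in enrichment, against 5.50, 5.49, 5.55, 5.49 and 5.50 in standard cages (difference -0.036).

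**Figure D3:**
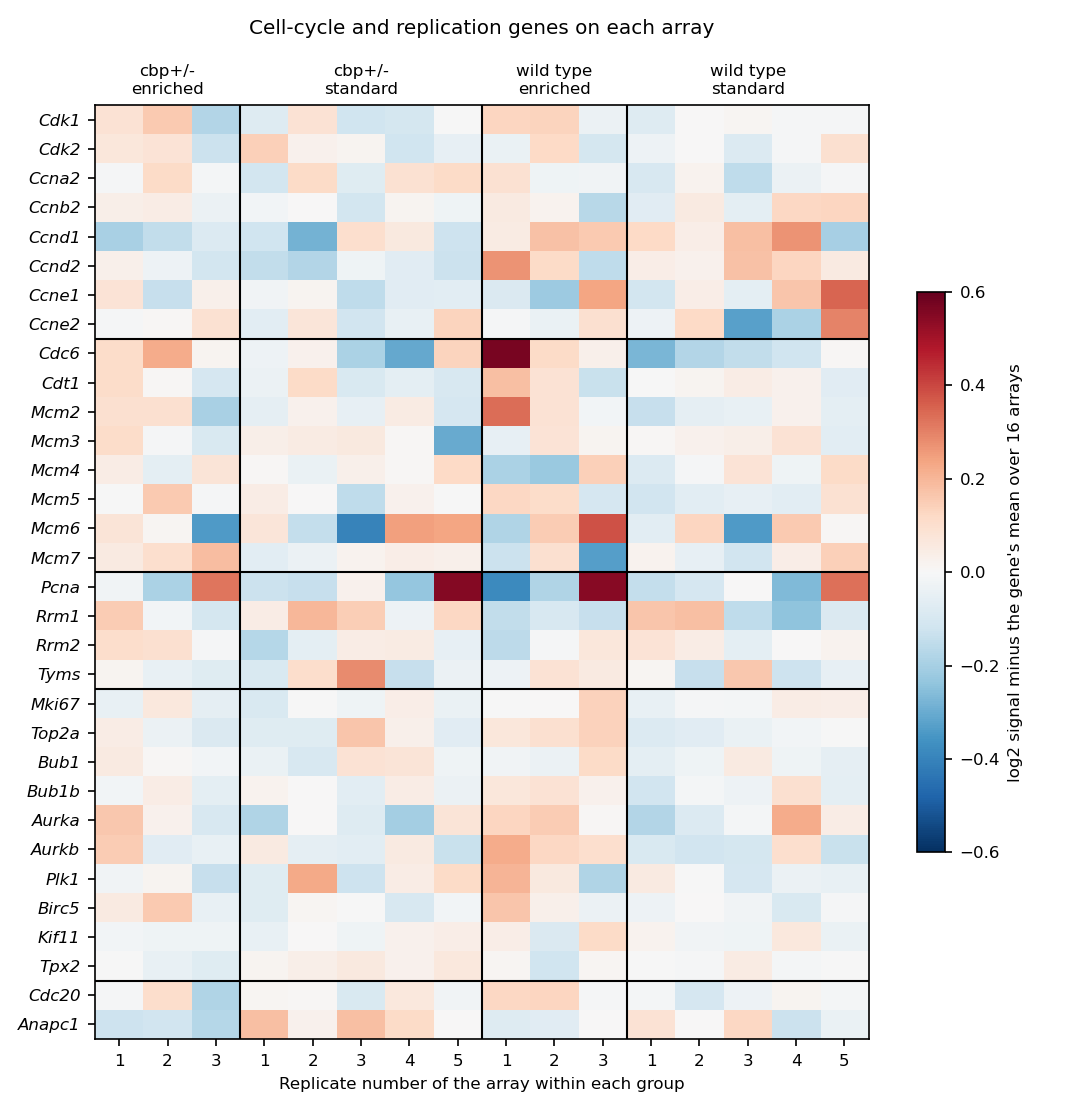
Deviation of each member's log2 signal from its mean over the 16 arrays, by array, with the 4 groups as columns and the functional classes as blocks of rows (from the top: cyclins and kinases, licensing and helicase, DNA synthesis, mitosis and chromatin, anaphase-promoting complex). Red is above and blue below the mean. No block of rows is uniformly red in enriched pools, Cdc6 is reddest in WT_EE_1, and Pcna is red in the enriched pools numbered 3 and the standard-cage pools numbered 5.

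Housing groups without overlap were counted over all members. In wild-type mice 3 of 32 members (9.38%) were higher in every enriched pool than in any standard-cage pool, namely Cdc6, Top2a and Aurkb, against 9.16% of all probe sets. In the lower direction it was 0 of 32 against 2% of all. In pools labelled cbp+/-, Mcm7 was higher without overlap (3.12%, against 1.64% of all) and Anapc1 and Tpx2 were lower (6.25%, against 1.25% of all). The median deviation over the 32 members was 0.045, 0.085 and 0.014 in enriched wild-type pools and -0.038, -0.0049, -0.030, -0.0017 and -0.0051 in standard-cage wild-type pools. It was 0.044, 0.0093 and -0.065 in enriched and -0.042, 0.0046, -0.027, 0.025 and -0.017 in standard-cage pools labelled cbp+/-. The wild-type groups of this median did not overlap and those labelled cbp+/- did, while the dim probe sets as a whole moved the same way.

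Anapc1, the scaffold subunit of the anaphase-promoting complex, gave the smallest p among the members in pools labelled cbp+/-, the 5th smallest of all 21780 probe sets in that comparison. Its log2 signal was 8.71, 8.73 and 8.67 in enriched pools labelled cbp+/-, against 9.02, 8.87, 9.02, 8.96 and 8.84 in standard-cage pools labelled cbp+/-. All enriched pools lay below all standard-cage pools. The difference was -0.24 (SE 0.060, 95% interval -0.37 to -0.11, a fold of 0.848, unadjusted p = 0.00139, adjusted p = 0.999), and -0.22 without CBP_SC_3. In wild-type mice Anapc1 read 8.76, 8.77 and 8.84 in enrichment, against 8.93, 8.84, 8.97, 8.71 and 8.80 in standard cages, which overlapped (difference -0.058, SE 0.060). The difference between the genotypes' housing differences was -0.18 and its adjusted p 1.00. Anapc1 protein works in neurons after division as well as in dividing cells, and the RNA of the whole hippocampus does not separate them.

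Labelled genotype moved none of the members past the test either. In standard cages 0 of 32 members and 0% of all probe sets passed, and 1 member (3.12%) had an unadjusted p under 0.05, against 0.987% of all. In enrichment 0 of 32 and 0% of all passed, and 2 members (6.25%) had an unadjusted p under 0.05, against 5.23% of all. In standard cages 20 of 32 members were higher in pools labelled cbp+/- (median difference 0.020), against 53.7% of all probe sets. That count was 16 of 32 without CBP_SC_5 (median 0.0040) and without WT_SC_3 (median 0.0069). In enrichment 12 of 32 were higher in pools labelled cbp+/- (median -0.042), against 41.7% of all, and 17 of 32 after quantile normalization. The members with the smallest p were the D-type cyclins, Ccnd2 in standard cages and, after Mcm7, Ccnd1 in enrichment.

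Cyclin D2, encoded by Ccnd2, is a D-type cyclin that adult hippocampal progenitors are known to depend on for division. Its log2 signal in standard cages was 9.35, 9.32, 9.48, 9.43 and 9.37 in pools labelled cbp+/-, against 9.54, 9.52, 9.67, 9.63 and 9.55 in wild-type pools. Every pool labelled cbp+/- lay below every wild-type pool, from which it follows that all 5 same-numbered pairs went the same way. The difference was -0.19 (SE 0.066, 95% interval -0.33 to -0.051, a fold of 0.875, unadjusted p = 0.0112, adjusted p = 1.00). Of all probe sets 0.0872% were lower without overlap in this comparison and 0.174% higher, and of the 32 members Ccnd2 alone was lower (3.12%) and 0 were higher. Without CBP_SC_3 the difference was -0.21.

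In enrichment Ccnd2 read 9.53, 9.47 and 9.39 in pools labelled cbp+/-, against 9.77, 9.62 and 9.35 in wild-type pools. Here the groups overlapped, since WT_EE_3 was the lowest of all 6. The difference was -0.12 (SE 0.085, adjusted p = 0.937), -0.23 without WT_EE_3 and -0.020 without WT_EE_1, the highest pool. Averaged over both housings it was -0.15 (SE 0.054, adjusted p = 0.999), with the pool labelled cbp+/- lower in 7 of 8 same-numbered pairs. The direction of the standard-cage pairs follows from their groups not overlapping.

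Ccnd1 encodes cyclin D1, the related activator of the kinases that release E2F factors. It read 7.81, 7.86 and 7.92 in enriched pools labelled cbp+/-, against 8.05, 8.18 and 8.16 in enriched wild-type pools. Every pool labelled cbp+/- lay below every wild-type pool (difference -0.27, SE 0.11, 95% interval -0.51 to -0.032, a fold of 0.830, adjusted p = 0.924). In standard cages it read 7.88, 7.72, 8.11, 8.06 and 7.88 in pools labelled cbp+/-, against 8.12, 8.04, 8.19, 8.27 and 7.80 in wild-type pools. These groups overlapped. WT_SC_5 was as low as the lower pools labelled cbp+/-, and CBP_SC_3 and CBP_SC_4 lay above WT_SC_2. The difference was -0.16 (SE 0.086, adjusted p = 1.00), and -0.10 without CBP_SC_2. The average over both housings was -0.21 (SE 0.070, adjusted p = 0.999), lower in the pool labelled cbp+/- in 7 of 8 pairs. The direction of the enriched pairs follows from their groups not overlapping.

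Since same-numbered pools of both genotypes deviated together within a housing, a fit with those pairs as a block was added after the data had been seen. In that blocked fit the averaged genotype difference kept its size by construction and had an adjusted p of 0.218 for Ccnd1 and 0.231 for Ccnd2, still above the threshold. It was 0.767 for Ccnd2 in standard cages and 0.305 for Ccnd1 in enrichment. The housing difference of Ccnd1 was -0.068 in pools labelled cbp+/- and 0.046 in wild-type pools. That of Ccnd2 was 0.071 in pools labelled cbp+/- and -0.0061 in wild-type pools.

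**Figure D4:**
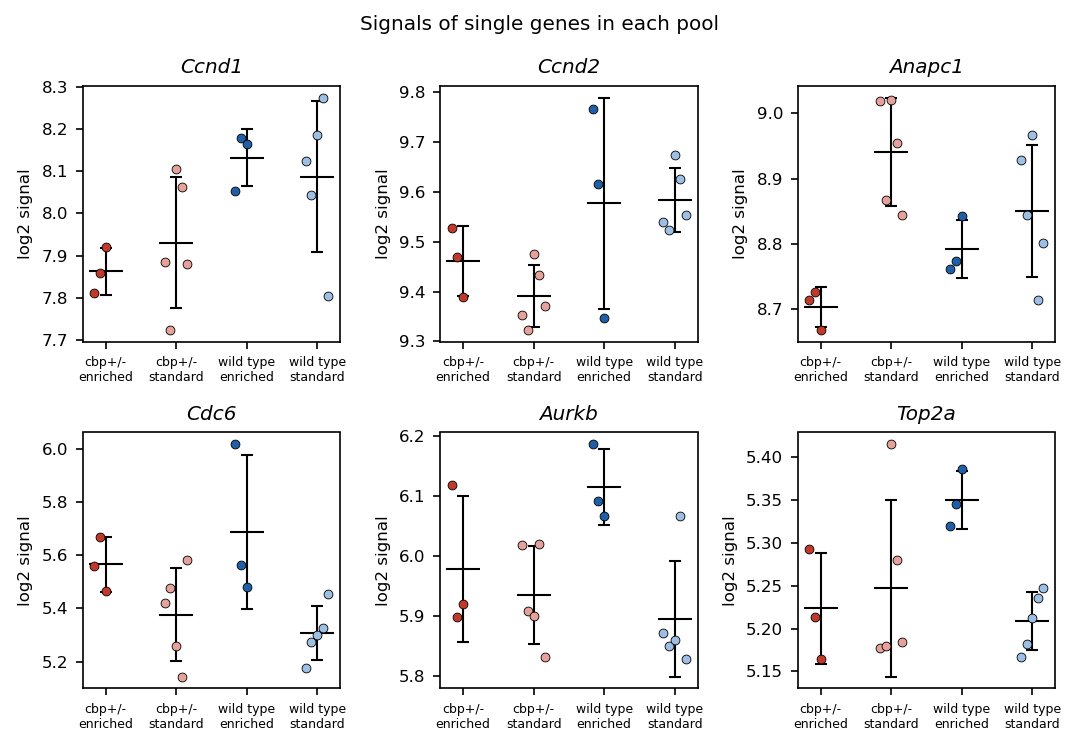
Log2 signal of 6 members in each pool, by group (3 enriched and 5 standard-cage pools per genotype as labelled). Points are pools, horizontal bars group means and whiskers 1 SD over pools, and each panel has its own axis. Ccnd2 in standard cages and Ccnd1 in enrichment are lower in every pool labelled cbp+/- than in any wild-type pool, the mean of Anapc1 is lowest in enriched pools labelled cbp+/-, and Cdc6, Aurkb and Top2a are higher in every enriched wild-type pool than in any standard-cage one.

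The E-type cyclins and Cdk2, which act at the start of DNA synthesis, had no comparable pattern. In pools labelled cbp+/- against wild-type pools, Ccne1 differed by 0.013 in enrichment and -0.14 in standard cages, Ccne2 by 0.014 and 0.022, and Cdk2 by 0.014 and 0.0066. In enrichment 3 members were lower in every pool labelled cbp+/- than in any wild-type pool (9.38%), namely Ccnd1, Top2a and Anapc1, against 6.85% of all probe sets. In the higher direction it was 0 of 32 against 3.53% of all. For Top2a the difference was -0.13 (SE 0.062, adjusted p = 0.924) and for Anapc1 -0.089 (SE 0.067, adjusted p = 0.937). Mcm7 was higher by 0.23 (SE 0.089, adjusted p = 0.924) and in 3 of 3 pairs, though CBP_EE_2 and WT_EE_2 were nearly level at 6.64. The Mcm7 difference was 0.13 without WT_EE_3, and with array weights it turned to -0.0038. The comparisons share pools: WT_EE_1, WT_EE_2 and WT_EE_3 enter both the wild-type housing and the enriched genotype differences.

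The interaction and the averaged effects called no member. For the difference between the genotypes' housing differences, 0% of all probe sets passed, and 1 member, Mcm7, had an unadjusted p under 0.05 (3.12%, against 2.66% of all). For housing averaged over genotypes 0% of all passed, and 4 members did so unadjusted (12.5%, against 19.1% of all). These were Cdc6 (0.29, adjusted p = 0.153), Aurkb (0.13, adjusted p = 0.191), Birc5 (0.087, adjusted p = 0.242) and, lower in enrichment, Anapc1 (-0.15, adjusted p = 0.149). For genotype averaged over housings 0% of all passed, and Ccnd1 and Ccnd2 did so unadjusted (6.25%, against 3.91% of all).

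Some members passed only where arrays were weighted or left out. With limma's array weights, which ran from 0.261 for WT_EE_3 to 8.63 for CBP_EE_1, 12 of 32 members passed for housing in wild-type mice (37.5%), against 24.1% of all probe sets. They were Cdk1, Cdc6, Mcm2, Mcm5, Top2a, Bub1b, Aurka, Aurkb and Cdc20, higher in enrichment, and Ccne1, Mcm4 and Tpx2, lower. Housing in pools labelled cbp+/- gave 4 (12.5%, against 4.77%), Ccnd2, Rrm2 and Aurka higher and Anapc1 lower. For labelled genotype in enrichment 7 passed (21.9%, against 11.4%), Ccne1, Mcm4, Rrm1 and Tpx2 higher in pools labelled cbp+/- and Ccnd1, Bub1b and Cdc20 lower; Tpx2 had the opposite sign without weights. Averaged over housings Ccnd1 and Ccnd2 passed, both lower in pools labelled cbp+/- (6.25%, against 0.698%), with adjusted p values of 0.0149 and 0.0355. For averaged housing 12 passed (37.5%, against 28.3%) and for the interaction 1, Rrm2 (3.12%, against 1.97%). WT_EE_2 and CBP_EE_1 carried most of the weight of their groups of 3, so these values rest largely on 1 pool per enriched group.

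Using only the pools numbered 1 and 2 of each group, 6 members passed for wild-type housing (18.8%, against 29.9% of all probe sets). Cdc6, Mcm2, Mcm5, Aurka and Aurkb were higher in enrichment and Rrm1 lower. For averaged housing 6 passed (18.8%, against 25.1%), and without both enriched pools numbered 3 it was 3 (9.38%, against 7.04%), Cdk1, Cdc6 and Mcm2. Within the set of 10 arrays that clustered together on all values, Cdc6 alone passed, in wild-type housing (3.12%, against 8.59%) and in averaged housing (3.12%, against 8.91%). Both choices of pools by number were added after the data had been seen. Of these 5 shares, 4 were larger among all probe sets than among the members.

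Beyond the members, 114 of 116 other cell-cycle and replication genes were measured, and 0 passed in any of the 7 comparisons of the limma fit. At an unadjusted p under 0.05 there were 2 in housing of pools labelled cbp+/- (1.75%, against 2.82% of all probe sets) and 19 in wild-type housing (16.7%, against 17.8% of all). Wild-type housing groups did not overlap for 9 genes higher in enrichment (7.89%, against 9.16% of all) and 3 lower (2.63%, against 2%). For labelled genotype in enrichment it was 6 higher (5.26%, against 3.53%) and 6 lower (5.26%, against 6.85%). The lack of overlap given for single genes below is to be read beside these shares. In wild-type mice 75 of 114 were higher in enrichment, with a median of 0.031, and 47 of 114 lay above the median of their own brightness class. By class, those higher in enriched wild-type pools were 11 of 17 origin recognition and firing genes, 12 of 22 replication fork and nucleotide genes, 10 of 17 E2F, Rb and MuvB factors, 4 of 9 further cyclins, kinases and phosphatases, 4 of 6 CDK inhibitors, 14 of 14 kinetochore and checkpoint genes, 12 of 14 spindle and cytokinesis genes and 8 of 15 anaphase-promoting complex genes. The counts in pools labelled cbp+/- were 10, 8, 11, 3, 5, 12, 11 and 8 of the same classes. Of the kinetochore genes, 8 of 14 lay above the median of their own brightness class in wild-type mice.

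E2f7, a member of the E2F family that represses its targets, had the smallest p of these genes in wild-type housing. It read 6.40, 6.11 and 6.14 in enriched wild-type pools, against 5.90, 5.79, 6.07, 5.88 and 6.01 in standard-cage wild-type pools. The groups did not overlap (difference 0.28, SE 0.074, adjusted p = 0.123). E2f7 in pools labelled cbp+/- read 6.07, 6.04 and 5.94 in enrichment, against 6.02, 6.00, 5.87, 5.98 and 6.01 in standard cages. Enriched pools labelled cbp+/- were thus below all enriched wild-type pools (difference -0.20, adjusted p = 0.924), and the difference between the housing differences was -0.25 (SE 0.10, adjusted p = 1.00).

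Ube2c, the ubiquitin-conjugating enzyme that serves the anaphase-promoting complex, was higher by 0.21 in enriched wild-type pools, without overlap (adjusted p = 0.155). In the other direction Anapc5, a further subunit of that complex, read 8.44, 8.75 and 8.62 in enriched wild-type pools, against 8.77, 8.93, 8.88, 9.04 and 8.91 in standard-cage wild-type pools. No value overlapped (difference -0.31, SE 0.083, adjusted p = 0.133). In enriched pools labelled cbp+/- Anapc5 was 8.99, 8.84 and 8.89, above all enriched wild-type pools (difference 0.30, SE 0.093, adjusted p = 0.924). Rpa1, which coats exposed DNA strands at the fork, differed by -0.20 in wild-type housing (adjusted p = 0.137).

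Cdkn1b, a CDK inhibitor that is also abundant in cells that have left the cycle, differed most between the genotypes' housing differences. It read 8.21, 8.12 and 8.28 in enriched pools labelled cbp+/-, against 7.99, 8.07 and 7.74 in enriched wild-type pools. These groups did not overlap (difference 0.27, SE 0.087, adjusted p = 0.924), and the difference between housing differences was 0.30 (SE 0.11, adjusted p = 1.00). E2f1, the activating E2F factor, was lower without overlap in enriched pools labelled cbp+/- (difference -0.23, adjusted p = 0.924). Rpa1 (0.17) and the checkpoint kinase Ttk (-0.11) had the next smallest p for the interaction.

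Other genes with the smallest p had no better support. In housing of pools labelled cbp+/- these were Cdkn2b, an inhibitor of cyclin D kinases (0.21), the kinesin Kif20a (0.098), the origin-firing kinase Cdc7 (-0.20) and the phosphatase Cdc25a, which activates CDKs (-0.21), all with an adjusted p of 0.999. For labelled genotype in standard cages they were Cdc25a (0.16), the cyclin D partner Cdk6 (0.16), the kinetochore protein Cenpf (-0.064) and Rpa1 (-0.078), all with an adjusted p of 1.00. For averaged housing they were Cdkn2b (0.26, adjusted p = 0.138), Kif20a (0.11), the anaphase-promoting complex subunit Cdc16 (-0.16) and the primase subunit Prim2 (-0.12). For averaged genotype they were Anapc5 (0.18), Cdkn1b (0.12), Cdca8 of the chromosomal passenger complex (-0.069) and E2f1 (-0.12).

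Markers of the cells that could carry these transcripts also gave no call in any comparison. Of 10 markers of neural stem cells and radial glia, 6 were higher in enrichment in each genotype, and of 8 markers of intermediate progenitors and newborn neurons, 2 were higher in pools labelled cbp+/- and 4 in wild-type pools. Of 10 oligodendrocyte progenitor markers, from the other main dividing cell of the adult brain, 3 were higher in enrichment in each genotype. Microglial markers were higher in 7 of 9 cases in pools labelled cbp+/- and in 6 of 9 in wild-type pools, and endothelial ones in 5 of 9 in each. Hippocampal neuron markers were higher in 2 of 9 and 1 of 9, ependymal ones in 4 of 8 and 8 of 8, and blood ones in 3 of 3 and 2 of 3, for pools labelled cbp+/- and then wild-type pools. Choroid plexus markers were higher in 0 of 9 cases in pools labelled cbp+/-, where CBP_SC_3 was high, and in 7 of 9 in wild-type pools. Of all probe sets, 55% were higher in enrichment in pools labelled cbp+/- and 58.4% in wild-type pools. The neuron markers lay in brightness classes 7 to 10, whose wild-type median differences ran from -0.067 to -0.093. The ependymal ones, but for Ccdc153, lay in classes 3 and 4, whose wild-type medians were 0.12 and 0.13. In wild-type pools both counts thus leaned the same way as their brightness classes. The part of the cell markers in the members' values was not tested.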

How the data were processed

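Hippocampal RNA of 16 pools was hybridised to Affymetrix Mouse Gene 1.0 ST arrays. The authors deposited intensity values, 1 for each probe set on each array and not log-transformed, as their size shows. RMA appears in the submitters' processing notes and GeneSpring GX in the labels' protocols. Their versions were not given in the sources used here, nor was any baseline step. Array medians ran from 76.7 to 85.46 over 28815 probe sets.

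The few arrays limit the precision. Among probe sets, the platform's table lists 23385; 21780 carried 1 gene symbol and were tested, 1605 carried several, and 5430 are unnamed here. Log2 of the deposited intensity was fitted in R 4.3.3 with limma 3.58.1 (4 group means over all 16 arrays, 12 residual degrees of freedom, eBayes), with 7 contrasts and Benjamini-Hochberg adjustment over all 21780 probe sets at a threshold of 0.05. The script was tested on simulated data. Y-linked probe sets served as a description of signal without transcript, since no detection calls were used here.

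The members, the other gene lists and the cell markers were chosen with earlier results of these data known. Named were all members, up to 2 other cell-cycle genes per direction with the smallest p in each comparison, and Crebbp. Alternatives were quantile normalization, leaving out probe sets with a mean log2 signal below 6, replicate and array-set blocks, array weights, other handling of probe sets, and leaving out each array. Groups and replicate numbers came from the titles. Same-numbered arrays of both genotypes deviated together within a housing. Correlations of their deviations from group means were 0.571 to 0.763 in standard cages and 0.272 to 0.644 in enrichment. The numbers were therefore taken to pair genotypes within a housing. Across housings the correlations ran from -0.333 to 0.415 and gave no clear pairing. In enrichment the pairing is less clear than in standard cages. CBP_EE_1 correlated with WT_EE_1 at 0.292 and with CBP_SC_1 at 0.415. For CBP_EE_2 the corresponding values were 0.272 and 0.329.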

Additional observations from a re-analysis of the deposited data

Results flagged for a closer look

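In groups of 5 pools, 6 of 64 member values and 3 of 48 gene-list levels held a pool far from the other 4; chance flags about 1 in 20 groups. Cdk1 was low on WT_SC_1 (5.15, nearest pool 5.22) and Mcm5 on CBP_SC_3 (6.03, nearest 6.18). Mcm3 was low on CBP_SC_5 (5.43, nearest 5.73), the widest of these gaps. Cdt1 was high on CBP_SC_2 (5.85, nearest 5.70), Aurkb on WT_SC_4 (6.07, nearest 5.87) and Tpx2 on WT_SC_3 (5.55, nearest 5.50). The median deviation of the other replication fork and nucleotide genes was high on WT_SC_5 (0.067, nearest -0.012). Choroid plexus markers were high on CBP_SC_3 (1.36, nearest 0.024) and, far less, on WT_SC_1 (0.10, nearest -0.11).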

How the results depend on the processing

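Without an alternative, 0 members passed in all 7 comparisons. Array weights gave 12 members and 5254 probe sets for wild-type housing, 4 and 1039 for housing in pools labelled cbp+/-, 12 and 6167 for averaged housing, 7 and 2474 for genotype in enrichment, 1 and 429 for the interaction and 2 and 152 for averaged genotype. Other counts of probe sets for wild-type housing were 1 with array sets as a block, 385 with sets found on deviations, 1871 within set 1 (1 member), 11 with the mean per gene, 36 with all deposited probe sets, 6513 with pools 1 and 2 only (6 members), 504 without both enriched pools numbered 3, and 0 to 19 leaving out 1 pool. Averaged housing gave 326 with the replicate number as a block, 1 with array sets, 332 with sets on deviations, 1941 within set 1 (1 member), 5470 with pools 1 and 2 (6 members), 1533 without both enriched pools numbered 3 (3 members), and 0 to 230 leaving out 1 pool. The set block gave 1 for housing in pools labelled cbp+/-. The replicate block added no member's call in any comparison, nor did pairing within a housing. The nearest was Anapc1 for averaged housing, -0.19 with an adjusted p of 0.0501 in the limma fit with the replicate number as a block. The members' median difference turned under quantile normalization to -0.030 for wild-type housing, -0.034 for averaged housing, 0.0041 for genotype in enrichment, 0.017 for the interaction, -0.011 for housing in pools labelled cbp+/- and 0.0046 for averaged genotype; without dim probe sets, which left 11 members, it was -0.0061, -0.0075 and 0.0053 for the first 3 of these and 0.00056 for averaged genotype. With weights it was 0.061 for averaged housing, 0.052 for housing in pools labelled cbp+/- and -0.0076 for genotype in enrichment, and the last was 0.00082 within set 1, with pools 1 and 2 only and without both enriched pools numbered 3. The 4 alternatives added after seeing the data were both new blocks and both choices of enriched pools. The causes of these moves were not tested. Of the sets found on values, only set 1 held arrays of every group. Of the sets found on deviations, sets 3 and 4 did, and no fit within them was run. Weak signal limits Mki67, Cdk1, Bub1 and Kif11 most.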
